A study of Mus musculus with 18 samples.

Results

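The RNA content of epididymal fat (eWAT) was described in 5 high-fat-fed mice of the Control f/f genotype, which make up 5 of the 18 RNA-seq libraries of the series. The libraries were chosen by their group label alone, and no measured value entered the choice. Control f/f mice carry floxed alleles of the gene under study with no Cre transgene, and the label puts all 5 on a high-fat diet. The labels call the tissue gonadal white adipose tissue. The study worked on males in these experiments, and 4 Y-linked genes of the sex check list were present in every library, at list means of 10.02, 10.03, 9.90, 9.32 and 9.58 in the 5 mice. Age, strain and duration of the diet are not given by the labels. The series also holds 5 libraries of mice that lost that gene in fat, 4 of AAV8-Control pads and 4 of AAV8-Nqo1 pads, which were not used here. With 1 group there was no comparison to test, so every value below is a description with n = 5 mice and no p-value, and the spread between mice is given as the SD. The mice are numbered C1 to C5 in the order of the deposited columns, and 5 values in a row stand for C1, C2, C3, C4 and C5.

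White fat stores triglyceride in large unilocular adipocytes and releases it as fatty acids, and it secretes hormones such as leptin and adiponectin. The epididymal pad lies against the epididymis and testis, is covered by a mesothelium, and holds endothelial cells, fibroblast-like progenitors, macrophages and lymphocytes beside the adipocytes. In obesity, macrophages that take up lipid gather around dying adipocytes, and acute phase proteins that are otherwise made mostly by the liver are also made in fat. In a bulk library, fewer cells of a type and less RNA per cell of that type cannot be told apart.

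The unit throughout is the regularized log (rlog) value of the authors, which is on a log2 scale and shrinks differences between libraries where counts are low, so a difference of 1 is a 2-fold change on this scale and understates the change of scarce genes. Of 21756 genes in the table, 18905 reached a minimum mean rlog value of log2 of 10 in these mice and 2851 did not. The depth of the libraries is unknown from these values. Before any result, the 5 libraries fell into 2 sets. In C1, C2 and C3 longer genes lay above their 5-mouse mean and shorter genes below it (Spearman's rho across genes between deviation and exon length, 0.519, 0.434 and 0.373), and in C4 and C5 the trend ran the other way (-0.546 and -0.537). Genes are not independent replicates, so these values are descriptions of the libraries. C1 was the highest mouse in 31.2% and the lowest in 34.5% of genes, C4 the highest in 29.9% and the lowest in 29.4%, whereas C2 was at either end least often (7.18% and 6.77%). C3 was the highest in 17.2% and the lowest in 11.9%, and C5 in 14.6% and 17.4%. The sources used here do not tie a library to a sequencing pool. The part of the length trend in any result below was not tested, and for the main lists that set C4 and C5 against the other mice, values within C1 to C3 or after the trend had been taken out of every library are also given.

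The 8 cell type markers put adipocytes first. Adiponectin (Adipoq, chr16:23146536-23158028 on GRCm38, the most fat-restricted hormone of the adipocyte) had rlog values of 15.91, 16.55, 16.81, 17.90 and 17.25. Leptin (Lep), the satiety hormone, was at 16.41, 16.85, 16.19, 16.35 and 17.06, and perilipin 1 (Plin1), which coats the lipid droplet, at 14.49, 14.72, 15.06, 14.93 and 14.88. All 3 adipocyte markers lay above every marker of another cell type in every mouse. Their order among the mice differed, since C4 had the most Adipoq, C5 the most Lep and C3 the most Plin1.

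Macrophage and endothelial markers followed. The lysosomal protein Cd68 was at 11.90, 11.50, 10.73, 11.44 and 11.71 and the macrophage surface receptor Adgre1 at 11.66, 11.06, 10.25, 10.55 and 10.74. C1 was highest and C3 lowest for both. The endothelial adhesion molecule Pecam1 was at 12.15, 11.79, 12.14, 11.42 and 11.51 and the progenitor receptor Pdgfra at 10.62, 10.12, 10.08, 9.54 and 9.41, and for both C4 and C5 lay under the other 3 mice. The SD with the length trend removed was 0.188 in place of 0.343 for Pecam1 and 0.1998 in place of 0.488 for Pdgfra. Keratin 7 (Krt7), an epithelial and mesothelial keratin, was the lowest marker at 5.75, 6.01, 5.81, 7.09 and 5.55, with C4 apart from the rest. On a scale that divides by exon length and sets each library to a sum of 1000000 (length-scaled level), Adipoq had a mean level of 7471, Lep of 2451, Plin1 of 512, Cd68 of 195, Adgre1 of 53.0, Pecam1 of 50.5, Pdgfra of 9.12 and Krt7 of 0.803. The tissue thus carried the defining markers of fat.

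**Figure D1:**
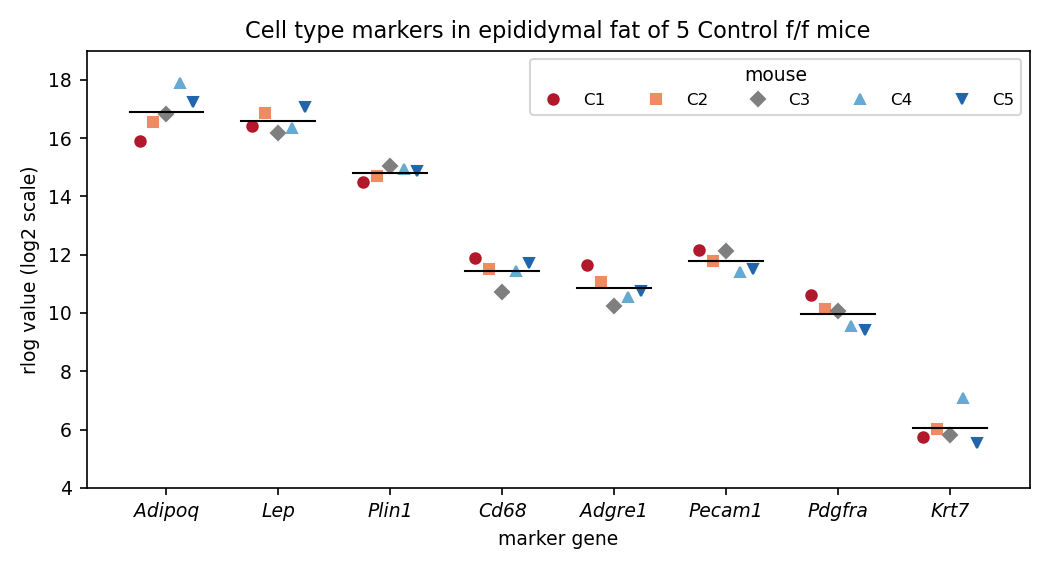
Regularized log values (log2 scale) of the 8 cell type markers in the 5 Control f/f mice, one symbol per mouse and a bar for the mean. Adipoq, Lep and Plin1 sit above 14 in every mouse, the macrophage, endothelial and progenitor markers between 9 and 13, and Krt7 under 8.

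The transcriptome was top-heavy. The 20 genes with the highest length-scaled level held 23.7%, 27.6%, 26.2%, 24.9% and 25.3% of the summed level in C1 to C5 (25.6 ± 1.46%, SD, n = 5). Of these, 8 were mitochondrial genes, led by cytochrome c oxidase subunit I (mt-Co1) with a level of 29110 ± 5323 and subunit II (mt-Co2) with 20830 ± 1364. All 13 protein genes of mitochondrial DNA (mtDNA) together held 15.5%, 15.9%, 16.2%, 10.8% and 12.8%. C4 and C5 had the smaller shares on this scale, which divides by exon length. The rlog means of these 13 genes, without that division, were 15.92, 16.15, 16.17, 15.95 and 16.11, lowest in C1.

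Among nuclear genes, the stearoyl-CoA desaturase Scd1, which makes monounsaturated fatty acids, ranked highest at a level of 13610 ± 3961, followed by carbonic anhydrase 3 (Car3, 12840 ± 3623) and the fatty acid binding protein Fabp4 (10750 ± 2623). Adipoq reached 7471 ± 2466. The remaining protein genes of the top 20 were Ifi27l2a, the galectin Lgals1 and the MHC class I light chain B2m. Among the 20, B2m varied least on this scale (6291 ± 299). Its SD on the rlog scale was 0.345, against a median of 0.326 over all genes. On this scale Scd1 and Car3 were highest in C3, at 19700 and 17080. Fabp4, Ifi27l2a, Adipoq and Lgals1 were highest in C4 and lowest in C1. Another 5 genes were non-coding: a ribosomal RNA gene (CT010467.1, 20630 ± 5971), the brain cytoplasmic RNA Bc1 (7883 ± 4573) and Gm23935, Gm24245 and Mir6236, which the annotation lists as miRNA genes. Genes not annotated as protein-coding held 31.7 ± 3.33% of the summed level. Levels of very short or repeated genes depend on how reads were assigned and on the division by length, and are uncertain.

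**Figure D2:**
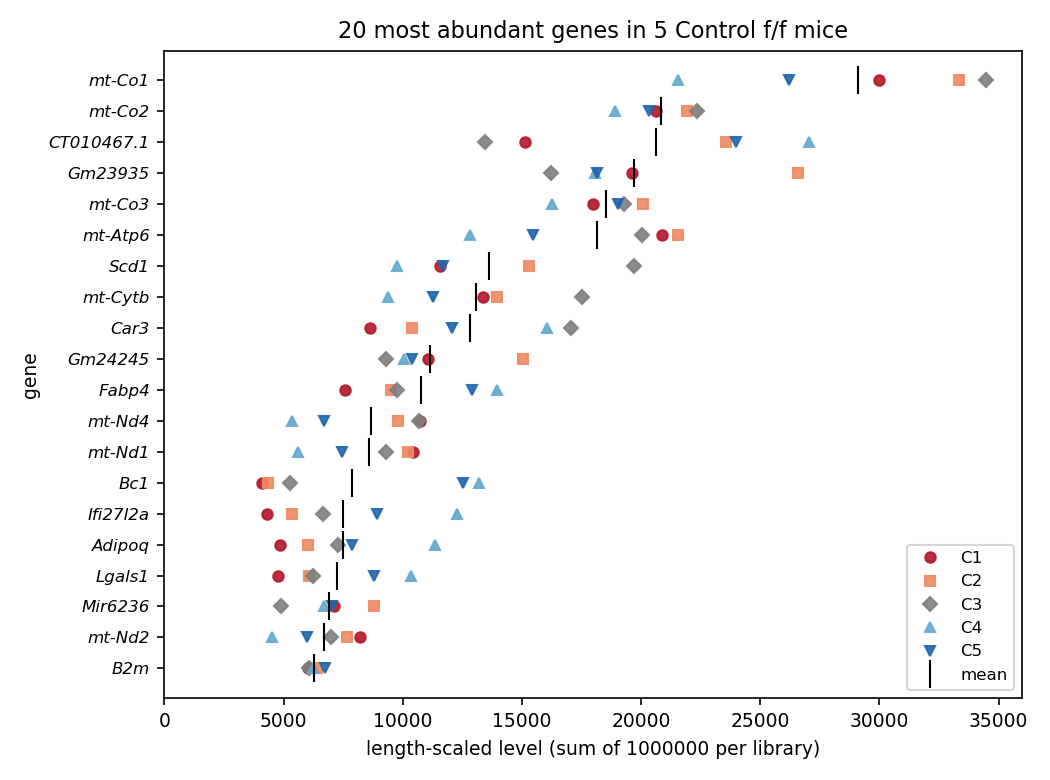
Length-scaled levels (sum of 1000000 per library) of the 20 most abundant genes, one symbol per mouse and a black tick for the mean. The mtDNA genes lie lowest in C4, while Bc1, Ifi27l2a, Adipoq and Lgals1 lie highest in C4 and lowest in C1.

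Most genes were even among the mice. In 12581 genes (66.5% of 18905) the highest and lowest mouse differed by less than 1 on the rlog scale. The SD passed 0.5 in 4140 genes (21.9%) and passed 1 in 374, and its median was 0.326. Among the 2000 genes of highest mean, the protein-coding gene with the smallest SD was glucose-6-phosphate isomerase (Gpi1, 11.66, 11.70, 11.72, 11.73 and 11.70, SD 0.027). The nuclear protein Glyr1 (11.32, 11.31, 11.36, 11.38 and 11.37), the actin regulator Abi1 (11.15, 11.13, 11.10, 11.16 and 11.21), casein kinase 1 alpha (Csnk1a1, 12.57, 12.64, 12.59, 12.54 and 12.63) and the small GTPase Nras (11.04, 10.96, 11.02, 10.96 and 11.05) were nearly as flat. Vwa5a, Dync1i2, Cmtm6, Tnfaip1 and Tcf25 completed the 10 flattest genes. With the length trend removed, the median SD was 0.255 and 2699 genes passed 0.5.

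Some whole lists were flat as well. None of 20 interferon response genes passed an SD of 0.5, against 21.9% of all genes, and the list means were 7.98, 7.98, 7.91, 7.95 and 7.84. Its most variable member, the ubiquitin-like modifier Isg15, was at 6.30, 6.58, 6.69, 7.51 and 6.88. Of 14 heat shock genes 1 passed (10.17, 10.25, 10.18, 10.17 and 10.25), and of 11 dendritic cell genes 1 (7.30, 7.16, 7.13, 7.13 and 7.08). None of the 13 mtDNA protein genes passed it as deposited, at list means of 15.92, 16.15, 16.17, 15.95 and 16.11. With the length trend removed, 2 of them did and the list means were 16.27, 16.29, 16.29, 15.60 and 15.85, with C4 and C5 low.

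**Figure D3:**
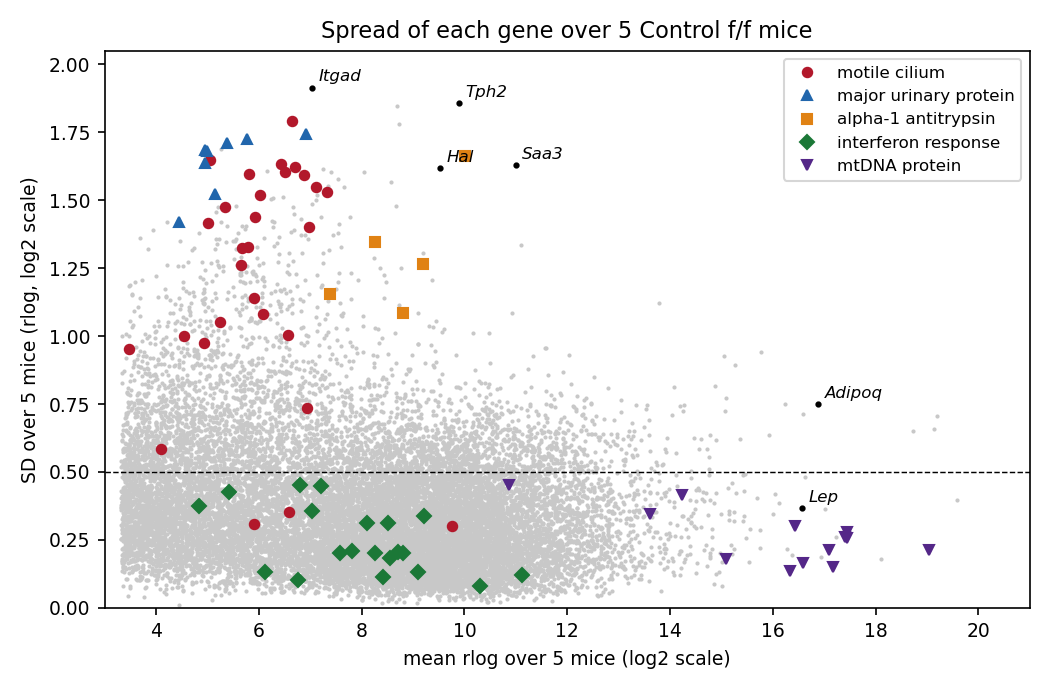
SD over the 5 mice against the mean rlog value (both log2 scale) for the genes above the minimum, each a grey point, with members of 5 lists in colour and a dashed line at an SD of 0.5. 26 of 29 motile cilium genes and all 8 major urinary protein and 5 alpha-1 antitrypsin genes lie above the line, and the interferon response and mtDNA protein genes lie below it.

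Genes of cilia and epithelium moved together. Motile cilia are beating projections whose axoneme is built of dynein arms, radial spokes and nexin links, and the transcription factors Foxj1 and Rfx3 drive their genes. In the male tract, cells with many motile cilia line the efferent ducts between testis and epididymis, and adipocytes do not carry them. The cilium list and the epithelium list were drawn up after the values of these mice had been seen, so their counts are no independent evidence. Of 29 motile cilium genes, 26 passed an SD of 0.5, and 27 were highest in C1. Among all genes, 21.9% passed that SD and 31.2% were highest in C1. The cilium list means were 7.59, 6.88, 5.63, 4.93 and 5.10, in the order C1, C2, C3, C5, C4 from high to low.

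Foxj1 (chr11:116330704-116335399) was at 9.20, 8.59, 7.03, 5.67 and 6.13. The axonemal protein Cfap44 (chr16:44394796-44482428) was the cilium gene with the largest SD (1.79), at 9.07, 7.78, 6.39, 4.82 and 5.13. For both, C1 was highest, C2 and C3 followed, and C4 and C5 were lowest. Outer and inner dynein arm heavy chains did the same, with Dnah5 at 9.01, 7.96, 6.60, 5.29 and 5.52, Dnah9 at 8.80, 7.34, 5.92, 4.70 and 5.44 and Dnah6 at 8.89, 7.65, 6.54, 4.78 and 5.65. The nexin-dynein regulator Drc1 (chr5:30281388-30366695) was at 7.07, 6.54, 4.40, 3.67 and 3.57 and the radial spoke gene Rsph4a at 8.54, 7.76, 6.24, 4.86 and 5.16. The kinase Mapk15, which acts in ciliogenesis, was at 8.06, 7.05, 5.72, 4.44 and 4.83, and Ccdc153 at 8.76, 8.73, 6.70, 5.47 and 5.92. Rfx3 spanned less (7.96, 7.34, 6.90, 6.22 and 6.28). The 3 members under an SD of 0.5 were Tppp3 (9.69, 9.66, 9.42, 10.24 and 9.74), Rsph9 (6.77, 6.51, 6.50, 7.07 and 6.12) and Tekt2 (6.33, 6.08, 5.84, 5.64 and 5.59).

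The order was present without the length trend and without C4 and C5. With the trend removed, 25 of 29 passed 0.5 and the list means were 7.54, 6.86, 5.60, 4.996 and 5.15. Within C1 to C3 alone, the SD of the list mean was 0.99, against 1.16 over all 5 mice.

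The promoters of the cilium genes are shown because these genes moved as a set and because Rfx3, like other RFX factors, has a short known core motif, the half-site GTTGCC, searched on both strands. No forkhead motif of Foxj1 was searched. The windows are the 300 bases from 250 before to 50 after the start of the gene in RefSeq (GRCm38.p6). Of 29 members, 24 had a window and 15 of these (62.5%) held the 6 letters on either strand, against 14.1% of all 27025 genes with windows of that length. A match is a description and not a binding site. The most variable cilium gene and the nexin-dynein regulator read as follows on the strand of the gene, 5′ to 3′, with each match in capitals. Cfap44 held 2 matches (chr16:44394549-44394848, plus strand) and Drc1 held 1 (chr5:30281143-30281442, plus strand).
Cfap44: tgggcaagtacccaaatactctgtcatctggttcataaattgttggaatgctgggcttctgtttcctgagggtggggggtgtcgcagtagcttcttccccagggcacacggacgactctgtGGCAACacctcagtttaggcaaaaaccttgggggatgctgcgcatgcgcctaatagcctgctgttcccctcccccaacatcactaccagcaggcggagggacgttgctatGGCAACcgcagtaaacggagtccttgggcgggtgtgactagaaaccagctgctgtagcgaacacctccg
Drc1: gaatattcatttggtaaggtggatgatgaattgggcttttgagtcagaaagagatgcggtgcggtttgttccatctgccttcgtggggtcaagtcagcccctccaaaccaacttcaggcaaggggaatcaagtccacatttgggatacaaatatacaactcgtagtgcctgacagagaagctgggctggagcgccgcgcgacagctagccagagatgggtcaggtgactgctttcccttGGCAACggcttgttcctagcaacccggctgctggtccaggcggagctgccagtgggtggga

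Epithelial genes followed the same order of mice. All 22 members of that list passed an SD of 0.5, 21 were highest in C1 and 17 lowest in C4. The shares of all genes were 21.9%, 31.2% and 29.4%. The epithelium list means were 8.58, 8.004, 6.69, 5.84 and 6.12. They were 8.53, 7.99, 6.66, 5.90 and 6.17 with the length trend removed. The adhesion molecule Epcam was at 9.44, 8.95, 7.59, 6.61 and 7.11 and E-cadherin (Cdh1) at 8.83, 7.95, 6.67, 5.85 and 6.35. The tight junction protein claudin 2 (Cldn2) was at 9.90, 9.43, 7.86, 6.24 and 6.76, the cadherin Cdh16 at 9.40, 8.72, 7.07, 5.76 and 6.08 and the nuclear receptor Hnf4a at 8.85, 8.37, 6.46, 5.55 and 5.94. In each of them C1 and C2 were high, C3 between, and C4 and C5 low. D-amino acid oxidase (Dao, 9.34, 8.99, 7.26, 5.80 and 6.29), gamma-glutamyltransferase (Ggt1, 8.91, 8.44, 6.75, 5.54 and 5.92) and the endocytic receptor Lrp2 (10.96, 10.08, 8.87, 8.03 and 7.99), which tubular epithelia use, repeated it. Matrilysin (Mmp7) was the exception at the top, with C2 just over C1 (10.13, 10.26, 8.33, 6.94 and 7.21). The doublecortin family gene Dcdc2a (10.87, 10.25, 8.38, 6.79 and 7.35), among the 20 genes of largest SD, followed the same order. Whether a piece of efferent duct came with the fat was not tested.

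Genes that mark the epididymis itself did not follow that order. Of 16 listed, 7 were in the table and 6 passed the minimum. All 6 were highest in C5, against 14.6% of all genes, at list means of 6.04, 5.83, 6.31, 6.49 and 7.87. The protease inhibitor Spink8 was at 6.28, 6.34, 7.31, 8.18 and 9.57, the carboxylesterase Ces5a at 5.89, 5.98, 6.86, 7.10 and 8.45 and the sperm-binding protein Crisp1 at 7.17, 7.57, 8.36, 8.30 and 9.86. C5 stood apart from the other 4 mice in each. Among the 35 genes in which C5 was the highest mouse by at least 1, a set found after the values were seen, were also the epididymal genes Rnase9 (3.56, 3.92, 4.58, 4.99 and 6.54), the beta-defensin Defb37 (3.005, 3.07, 3.74, 3.66 and 5.34) and Pate1 (3.20, 3.47, 3.89, 4.09 and 5.55). Of 8 testis and sperm genes, 1 passed the minimum, the protamine Prm2 (3.75, 4.42, 3.63, 3.65 and 4.54).

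**Figure D4:**
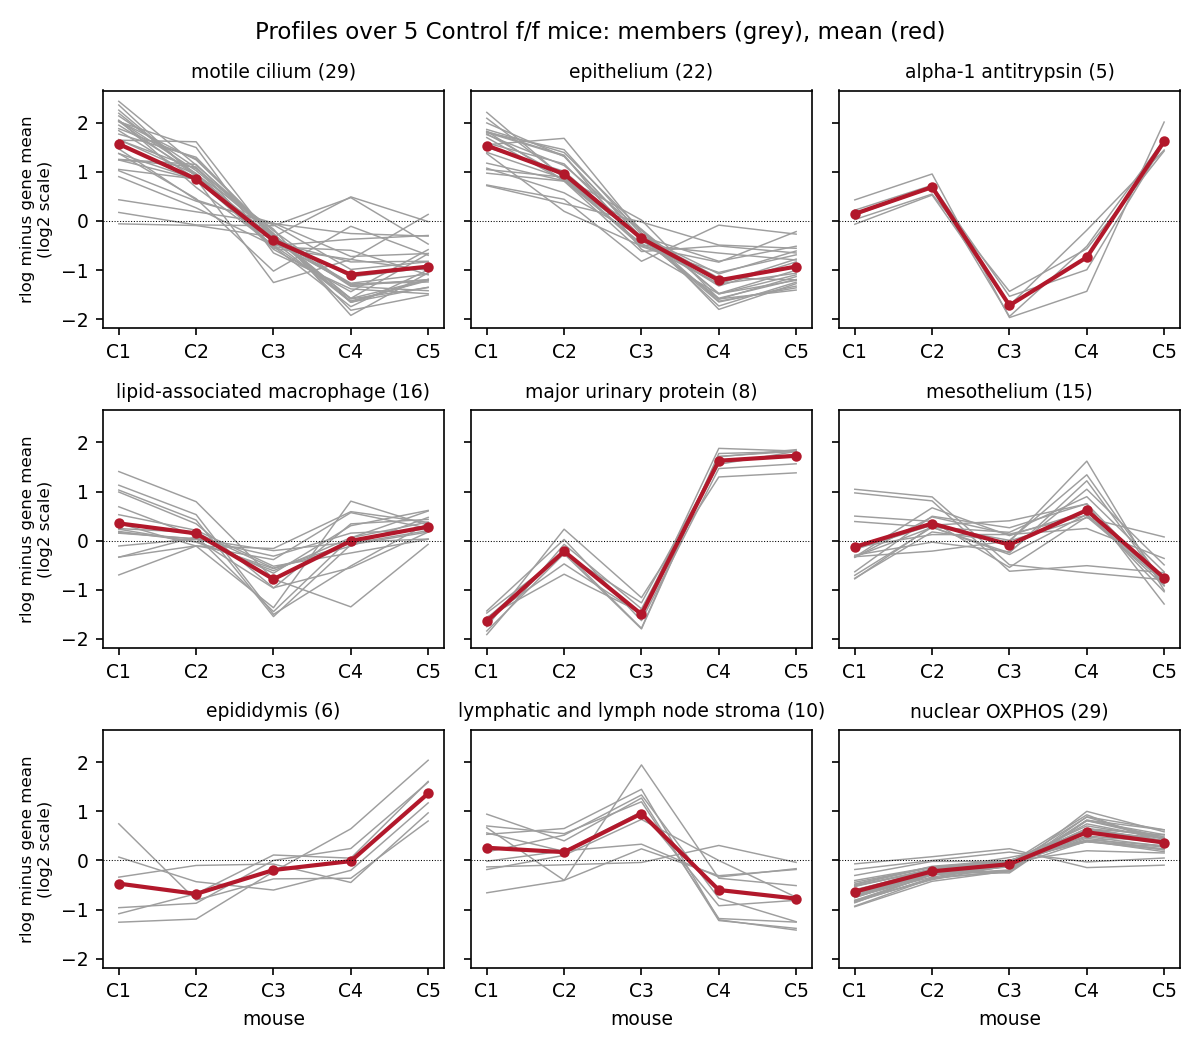
Deviation of each member (grey line) from its own 5-mouse mean and the mean of the members (red), on the log2 scale, for 9 lists with the number of members in brackets. The lines join the values of 1 gene in the 5 mice, which have no order of their own. The means of cilium and epithelium genes are highest in C1 and lowest in C4, and those of epididymis genes are highest in C5, of mesothelium genes in C4 and of lymphatic genes in C3.

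The gene with the largest SD of all was the integrin subunit Itgad (chr7:128154376-128223816), which pairs with beta 2 integrin on leukocytes. Its values were 8.97, 8.85, 4.85, 5.36 and 7.14, high in C1 and C2, between in C5 and low in C3 and C4. Tph2, the tryptophan hydroxylase of serotonin neurons, was at 10.79, 11.35, 7.67, 8.12 and 11.56, and the orphan receptor Gpr50, a relative of melatonin receptors, at 10.81, 10.21, 6.64, 7.06 and 8.75. In all 3 genes C3 was lowest and C4 next. Sptlc3, a subunit of the enzyme that starts sphingolipid synthesis, was at 7.18, 7.99, 4.55, 4.39 and 6.65, the proton channel Otop1 at 7.76, 7.77, 5.31, 5.02 and 7.55 and the chitinase-like protein Chil3 at 6.57, 7.69, 4.46, 4.88 and 7.59. In these too, C3 and C4 lay under the other mice. With the length trend removed, the SD was 1.88 for Itgad, 1.85 for Tph2, 1.87 for Gpr50 and 1.63 for Sptlc3.

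Serum amyloid A3 (Saa3, chr7:46711998-46715700), the main serum amyloid of mouse fat, was at 11.25, 11.92, 8.83, 10.02 and 13.01. Alpha-1 antitrypsin genes moved with it, and all 5 of them (a list drawn up after the values were seen) were highest in C5 and lowest in C3. Serpina1b (chr12:103728156-103830373) was at 10.45, 10.97, 8.05, 8.59 and 12.03, Serpina1d at 9.41, 9.92, 7.65, 8.20 and 10.77 and Serpina1a at 8.83, 9.35, 7.37, 8.24 and 10.23. These 5 genes are near-identical copies, so how reads were shared between them is uncertain and they are not 5 separate observations. Their list means were 8.88, 9.42, 7.01, 7.99 and 10.35. The acute phase list, which holds none of these 5 genes, had 8 of 13 members over an SD of 0.5, 8 highest in C5 and 7 lowest in C3, at list means of 10.46, 10.91, 9.72, 10.07 and 11.18. Over all genes, C5 was the highest mouse in 14.6% and C3 the lowest in 11.9%, and 21.9% passed an SD of 0.5. Haptoglobin (Hp), which binds free haemoglobin, was at 16.70, 17.20, 15.67, 16.07 and 17.33, the haem carrier hemopexin (Hpx) at 6.69, 7.96, 4.80, 6.59 and 7.61 and Saa1 at 4.63, 5.36, 2.66, 3.63 and 6.05. C2 and C5 were high and C3 low in each. Lipocalin 2 (Lcn2), an iron-siderophore binder, went another way (10.84, 10.65, 9.42, 8.58 and 9.71), with C1 highest and C4 lowest. The S100 protein S100a8 was at 9.46, 10.25, 7.97, 8.93 and 10.62, in the order of Saa3, whereas its usual partner S100a9 was near the minimum (3.09, 2.81, 3.11, 4.84 and 3.97).

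A second liver-like set behaved differently again. All 8 major urinary protein genes, pheromone carriers that the mouse liver secretes in bulk, were low in C1 and C3 and high in C4 and C5, at list means of 3.68, 5.11, 3.82, 6.95 and 7.05. These were 3.94, 5.21, 3.93, 6.69 and 6.84 with the length trend removed. Mup3 (chr4:62083476-62087342) was at 4.21, 5.09, 4.30, 7.65 and 7.59. These genes are near-identical copies too, and the list was drawn up after the values were seen. Of the 9 liver genes above the minimum, 8 were highest in C4 and all passed an SD of 0.5 (6.38, 7.13, 6.45, 8.62 and 8.39). Among all genes, 29.9% were highest in C4 and 21.9% passed that SD. The liver list is not separate from the sets above, since it holds Mup3 and the alpha-1 antitrypsin gene Serpina1a. Serpina1a was its only member highest in C5. Apolipoprotein A1 (Apoa1, the core protein of HDL) was at 3.66, 4.62, 3.95, 7.39 and 6.74, Apoa2 at 4.02, 5.37, 4.56, 7.63 and 7.25, fetuin A (Ahsg) at 4.35, 5.06, 4.41, 7.002 and 6.77 and albumin (Alb) at 8.32, 9.02, 9.38, 10.97 and 10.10. C4 and C5 stood above the other 3 for each. Cyp2e1, a cytochrome P450 of liver that fat also makes, was abundant in all mice (14.18, 14.69, 15.74, 16.03 and 14.80). At a length-scaled mean of 29.2 for Alb and 3.72 for Apoa1, they were scarce beside the adipocyte genes. With the length trend removed, the list means were 6.61, 7.22, 6.55, 8.38 and 8.21. Whether liver RNA entered C4 and C5 was not tested.

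The macrophage list and the list of lipid-associated macrophages (the cells that ring dying adipocytes) were both lowest in C3. Of 20 macrophage genes 7 passed an SD of 0.5 and 12 were lowest in C3 (10.69, 10.50, 10.20, 10.53 and 10.43), and of 16 lipid-associated macrophage genes 9 passed it and 14 were lowest in C3 (11.61, 11.40, 10.47, 11.25 and 11.54). Over all genes, C3 was the lowest mouse in 11.9%, and 21.9% passed an SD of 0.5. The transmembrane glycoprotein Gpnmb was at 12.62, 12.01, 10.05, 11.51 and 11.77, the macrophage elastase Mmp12 at 12.32, 11.72, 10.18, 11.68 and 12.23 and the lipid receptor Trem2 at 10.36, 9.89, 8.64, 10.81 and 10.32. In C3 each was under all other mice by more than 1. Osteopontin (Spp1) was at 8.99, 8.37, 6.80, 6.23 and 7.50 and the lysosomal proton pump subunit Atp6v0d2 at 10.73, 10.13, 8.10, 9.08 and 9.95. For Spp1 the lowest mouse was C4. The galectin Lgals3 (13.52, 13.40, 12.40, 13.71 and 13.80) and the protease Ctss (12.70, 12.43, 11.37, 12.28 and 12.55) were lowest in C3 as well. The lysozyme Lyz2 was instead lowest in C1 (13.78, 14.28, 13.84, 14.82 and 14.40), and the complement subunit C1qb stayed within 1 among the mice (12.24, 12.13, 11.93, 12.66 and 12.51). Lyve1, which marks resident macrophages and lymphatic vessels, was highest in C3 (9.27, 9.56, 10.29, 9.46 and 8.71). Arginase 1 (Arg1) was lowest in C3 by more than 1 (6.06, 6.07, 4.65, 6.02 and 5.93).

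C3 stood apart at the top for a few genes, among them a pair of hormone-responsive ones. The glucocorticoid targets Fkbp5, a co-chaperone of the receptor, and Zbtb16, a transcription factor, were at 10.66, 10.71, 11.95, 10.37 and 10.49 and 9.82, 9.92, 11.44, 9.74 and 9.73. For both, C3 was above all other mice by more than 1 and the other 4 mice lay close together. Of 15 glucocorticoid response genes, 7 were highest in C3 and 5 in C5 (10.72, 10.89, 11.13, 10.62 and 10.94), among them Tsc22d3 (11.74, 12.19, 12.62, 12.16 and 12.49). C3 was the highest mouse in 17.2% of all genes and C5 in 14.6%. The metallothioneins Mt1 (11.69, 11.97, 12.42, 12.54 and 12.75) and Mt2 (10.21, 10.63, 11.19, 11.21 and 11.65) were highest in C5. Hif3a, a hypoxia-inducible factor subunit (6.63, 6.28, 8.55, 5.97 and 5.75), and the guanylate-binding protein Gbp2b (4.71, 4.91, 8.19, 5.02 and 4.95, chr3:142594847-142619179), named after their values were seen, were also high in C3 by more than 1. The interferon response list, which holds other guanylate-binding proteins such as Gbp2 (10.92, 11.11, 11.15, 11.18 and 11.23), did not share this.

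The circadian clock is a feedback loop in which Clock and Arntl drive the Per, Cry and Nr1d repressors through the E-box CACGTG. Of 18 clock genes, 12 were highest in C3, where 17.2% of all genes were, at list means of 9.13, 8.95, 9.23, 8.66 and 8.66. Per1, also a glucocorticoid target, was at 10.08, 9.98, 10.87, 9.53 and 9.85 and Per2 at 9.18, 8.74, 9.53, 8.05 and 8.41. The repressor Nr1d1 was at 11.26, 11.17, 11.82, 11.11 and 11.12, the output factor Dbp at 9.72, 9.57, 10.30, 9.79 and 9.80 and the repressor Ciart at 6.09, 5.91, 6.90, 5.66 and 6.02. C3 was highest in all 5 genes. Arntl, whose phase is opposite, was lowest in C3 (7.29, 7.09, 6.60, 6.96 and 6.99). Among the 18, Npas2 (5.76, 4.84, 4.20, 4.33 and 3.54), highest in C1, and Per2 passed an SD of 0.5, and with the length trend removed Npas2 and Ciart did. The hour of death of each mouse is not given by the labels.

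The promoter windows of Ciart and Per1 are shown because both genes were highest in C3 and hold the E-box. Of 15 members with a window, 5 held CACGTG (33.3%), against 8.09% of all genes. The E-box is its own reverse complement, and it can share a G with an RFX half-site that follows it. Ciart held 3 matches (chr3:95882179-95882478, minus strand, printed 5′ to 3′ along the gene) and Per1 held 1 (chr11:69098699-69098998, plus strand), with capitals at each match.
Ciart: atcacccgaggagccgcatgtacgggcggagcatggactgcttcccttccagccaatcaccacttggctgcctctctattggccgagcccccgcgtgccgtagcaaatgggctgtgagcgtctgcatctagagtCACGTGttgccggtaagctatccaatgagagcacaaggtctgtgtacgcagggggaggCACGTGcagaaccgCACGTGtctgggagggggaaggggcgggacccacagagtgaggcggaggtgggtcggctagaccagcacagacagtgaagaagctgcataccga
Per1: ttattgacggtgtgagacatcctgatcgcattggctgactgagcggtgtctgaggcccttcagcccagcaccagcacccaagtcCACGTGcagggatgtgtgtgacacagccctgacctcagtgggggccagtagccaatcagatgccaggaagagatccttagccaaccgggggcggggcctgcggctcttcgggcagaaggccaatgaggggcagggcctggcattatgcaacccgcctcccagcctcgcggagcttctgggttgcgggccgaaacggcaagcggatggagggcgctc

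The mesothelium, the cell sheet around the pad, had its own order. Of 15 genes above the minimum, 13 passed an SD of 0.5, 11 were highest in C4 and 13 lowest in C5 (7.63, 8.11, 7.68, 8.38 and 6.997). Over all genes, C4 was the highest mouse in 29.9% and C5 the lowest in 17.4%, and 21.9% passed an SD of 0.5. Uroplakin 3b (Upk3b, chr5:136038496-136046487) was at 8.62, 9.56, 9.36, 11.005 and 8.38, uroplakin 1b (Upk1b) at 6.74, 7.81, 7.52, 8.85 and 6.65 and mesothelin (Msln) at 7.40, 7.995, 7.48, 8.94 and 6.81. C4 was above the other mice and C5 lowest for all 3, as for Krt7. Keratins 8 and 18 were instead high in C1 and C2 (Krt8, 8.64, 8.48, 7.10, 6.94 and 6.79, and Krt18, 9.21, 9.05, 7.62, 7.73 and 7.59), and both stand on the mesothelium and epithelium lists. Removing the length trend left 13 of 15 above an SD of 0.5.

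Endothelial genes passed an SD of 0.5 about as often as all genes (4 of 17, 23.5%, against 21.9%). Their list means were 10.83, 10.56, 10.99, 10.29 and 10.26, and 9 were highest in C3 and 13 lowest in C4 or C5. C3 was the highest mouse in 17.2% of all genes, C4 the lowest in 29.4% and C5 the lowest in 17.4%. Removing the length trend gave endothelial list means of 10.70, 10.51, 10.92, 10.43 and 10.36. Von Willebrand factor (Vwf) was at 11.23, 10.63, 11.47, 9.58 and 9.55 and VE-cadherin (Cdh5) at 12.24, 11.77, 12.16, 11.40 and 11.40. Both were high in C1 and C3. Lymphatic genes were wider apart, though the lists overlap. Prox1 and Flt4 are also members of the endothelial list, which holds Fabp4 of the adipocyte list as well. The lymphatic fate factor Prox1 was at 6.50, 6.34, 6.99, 4.61 and 4.54, the VEGF-C receptor Flt4 at 8.68, 8.30, 9.11, 7.20 and 7.31, Mmrn1 at 9.29, 9.41, 10.21, 7.55 and 7.34 and the lymph node chemokine Ccl21a at 8.50, 8.84, 9.66, 7.55 and 7.08. C3 led in all 4 and C4 and C5 were lowest. On the list of lymphatic and lymph node stroma genes, drawn up after the values were seen, 8 of 10 were highest in C3 (7.47, 7.38, 8.17, 6.61 and 6.44, and 7.43, 7.36, 8.13, 6.67 and 6.48 with the length trend removed), with Ccl19 apart in C3 alone (2.92, 3.17, 5.52, 3.21 and 3.06).

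Progenitor and fibroblast genes were even (1 of 17 over an SD of 0.5, 11.33, 11.20, 11.13, 11.07 and 10.97), with decorin (Dcn) at 14.39, 14.45, 14.65, 14.65 and 14.41. Collagen and matrix genes leaned to C1, where 16 of 18 were highest (12.95, 12.65, 12.40, 12.03 and 12.23), led by Col1a1 (13.48, 12.70, 12.57, 11.77 and 11.89) and fibronectin (Fn1, 13.98, 13.14, 13.19, 12.68 and 12.60). C1 was the highest mouse in 31.2% of all genes. Collagen and matrix genes are long, and with the length trend removed the list means were 12.73, 12.56, 12.28, 12.28 and 12.42. Mural and smooth muscle genes had list means of 10.38, 10.12, 10.41, 9.94 and 10.10, with the smooth muscle myosin Myh11 at 10.91, 10.17, 10.66, 9.18 and 9.48.

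T and NK cell genes were scarce, whereas the immunoglobulin genes Igkc, Igha and Ighm and the joining chain Jchain were not. The T and NK cell list had means of 5.66, 5.67, 5.43, 5.77 and 5.49, with Cd3e at 5.32, 4.82, 4.95, 4.88 and 4.27 and Cd8a at 5.68, 5.19, 4.74, 4.36 and 4.33. Both genes were highest in C1, as were 5 of the 17 members in all, while 7 were highest in C4. The shares of all genes were 31.2% for C1 and 29.9% for C4. Among B and plasma cell genes (7.02, 6.69, 6.82, 7.23 and 6.67), the kappa light chain constant gene Igkc was at 11.93, 10.74, 11.19, 11.98 and 10.84 and the joining chain Jchain at 10.31, 9.33, 9.40, 10.46 and 9.28. C1 and C4 had the most of both. The heavy chains Ighg1 (5.76, 3.26, 3.66, 5.36 and 3.002), Ighg2b (7.31, 6.26, 6.99, 7.30 and 5.65), Ighg2c (8.19, 6.24, 7.55, 7.51 and 6.91) and Igha (11.58, 10.32, 10.47, 10.80 and 9.90) were highest in C1, while Ighm (14.07, 14.48, 14.11, 14.69 and 14.86) was highest in C5. Ighg1 was near the minimum in C2, C3 and C5. Mast cell genes had list means of 6.96, 6.81, 6.87, 6.37 and 6.25, with the tryptase Tpsb2 at 6.83, 6.79, 7.38, 7.14 and 6.73. The histamine-making enzyme Hdc was instead in the epithelial order (8.59, 8.37, 6.69, 6.08 and 6.33). Red cell genes were lowest in C1 for all 7 members (9.89, 10.50, 10.64, 10.91 and 10.89), against 34.5% of all genes. Skeletal muscle genes had list means of 5.38, 5.66, 5.33, 5.89 and 6.26, with myoglobin (Mb) at 4.16, 4.47, 3.97, 4.90 and 5.58.

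Of 20 adipocyte genes 7 passed an SD of 0.5 (35.0%, against 21.9% of all genes). Of the 20, 16 were lowest in C1, against 34.5% of all genes (14.36, 14.77, 15.09, 15.30 and 15.12). The complement protease adipsin (Cfd) was at 14.64, 15.11, 16.40, 16.97 and 15.73 and resistin (Retn) at 13.81, 14.49, 15.21, 16.19 and 15.56, both lowest in C1 and highest in C4. The beta 3 adrenergic receptor Adrb3 was at 11.68, 11.89, 13.12, 13.19 and 12.52 and the gluconeogenic and glyceroneogenic enzyme Pck1 at 13.95, 14.50, 15.48, 15.36 and 14.59, with C3 and C4 high. The differentiation factors Pparg (11.77, 12.10, 12.50, 12.31 and 12.33) and Cebpa (13.26, 13.65, 14.08, 14.34 and 14.04) and the lipase Lpl (17.86, 18.32, 18.10, 18.02 and 18.24) differed less. With the length trend removed the adipocyte list means were 14.39, 14.79, 15.11, 15.27 and 15.08. The adipocyte list was lowest in C1 and highest in C4, the mice at the opposite ends of the cilium and epithelium lists. The part of either in the other was not tested.

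De novo lipogenesis genes had nearly level list means (12.23, 12.35, 12.32, 12.19 and 12.18) made of unlike members. Thrsp, a regulator of lipogenesis, was at 13.09, 13.62, 14.19, 15.27 and 14.27, the synthase Fasn at 15.14, 14.98, 14.61, 14.24 and 14.32 and ATP citrate lyase (Acly) at 12.66, 12.44, 12.18, 12.19 and 12.07. Thrsp was highest in C4, whereas Fasn and Acly were highest in C1. In the lipolysis and lipid droplet list, 15 of 20 were lowest in C1 (12.74, 13.06, 13.21, 13.32 and 13.30), and the triglyceride lipase Pnpla2 was highest in C3 (14.72, 15.07, 15.63, 15.15 and 15.18). Of 15 insulin and glucose uptake genes, 10 were highest in C3 (11.08, 11.20, 11.56, 11.10 and 10.998), with the factor Foxo1 at 11.27, 11.20, 12.11, 10.91 and 11.04 and the transporter Slc2a4 at 11.19, 11.58, 12.03, 12.34 and 11.86. Slc2a4 itself was highest in C4. Of 17 cholesterol synthesis genes, 9 were lowest in C3 and 6 in C4 (9.86, 9.97, 9.46, 9.58 and 9.89), with Insig1, which holds back the sterol-sensing SREBP pathway, at 12.02, 12.42, 11.53, 11.80 and 12.38. For comparison, C1 was the lowest mouse in 34.5% of all genes, C3 in 11.9% and C4 in 29.4%, and C3 the highest in 17.2%.

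Nuclear genes of oxidative phosphorylation (OXPHOS) and of the cytosolic ribosome moved nearly as blocks. Of 29 OXPHOS genes, 26 were highest in C4 and 28 lowest in C1 (11.68, 12.10, 12.24, 12.89 and 12.68), and of 29 ribosomal genes 28 were highest in C4 and 27 lowest in C1 (11.46, 11.77, 11.76, 12.60 and 12.31). Among all genes, C4 was the highest mouse in 29.9% and C1 the lowest in 34.5%. Ndufa4 was at 12.42, 12.98, 13.13, 14.23 and 13.97 and Rplp1 at 12.70, 13.15, 13.33, 14.59 and 14.01. These are short genes, and with the length trend removed the counts over an SD of 0.5 were 3 in place of 16 and 4 in place of 14. The OXPHOS list means were then 11.83, 12.16, 12.31, 12.73 and 12.56, still lowest in C1 and highest in C4. The mtDNA-encoded partners did not share this order, as given above. In the mitophagy and biogenesis list, 3 of 20 passed an SD of 0.5 (10.20, 10.34, 10.33, 10.25 and 10.31) and none did with the trend removed. Pink1, a kinase of mitophagy, was at 11.84, 12.20, 12.43, 12.76 and 12.48, and the co-activator Ppargc1a at 7.65, 7.37, 7.35, 6.33 and 6.81.

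Proliferation genes leaned to C1, where 15 of 20 cell cycle genes were highest, and 14 were lowest in C3 (7.22, 6.81, 6.28, 6.47 and 6.70). Among all genes, C1 was the highest mouse in 31.2% and C3 the lowest in 11.9%. Mki67 was at 9.02, 7.68, 7.02, 6.28 and 6.62 and topoisomerase Top2a at 8.71, 7.85, 7.12, 6.72 and 7.30. Both were highest in C1 but belonged to the 5 members that were lowest in C4 and not in C3. Of 20 immediate early genes, 9 were highest in C1 (8.60, 8.22, 8.16, 8.24 and 8.15), against 31.2% of all genes. Fos was at 9.47, 8.59, 7.99, 8.21 and 8.45, Egr2 at 8.40, 7.44, 6.63, 6.96 and 7.15 and Atf3 at 9.83, 9.39, 7.97, 9.28 and 9.79. Atf3 was low in C3 alone. Thermogenic genes were low, with Cidea at 5.83, 6.17, 6.05, 6.62 and 6.93 and Cox8b at 7.92, 8.45, 8.55, 9.53 and 10.08. Integrated stress response genes had list means of 9.53, 9.74, 9.60, 9.84 and 9.90 and NRF2 targets of 11.02, 11.21, 11.32, 11.53 and 11.44.

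Hal, the enzyme that opens histidine breakdown, had a pattern of its own. It was at 10.63, 7.83, 10.74, 10.76 and 7.68, with C1, C3 and C4 level and C2 and C5 about 3 lower. The phosphodiesterase Gdpd3 was split another way, high in C3 and C4 (7.66, 7.50, 10.45, 10.13 and 7.62).

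**Figure D5:**
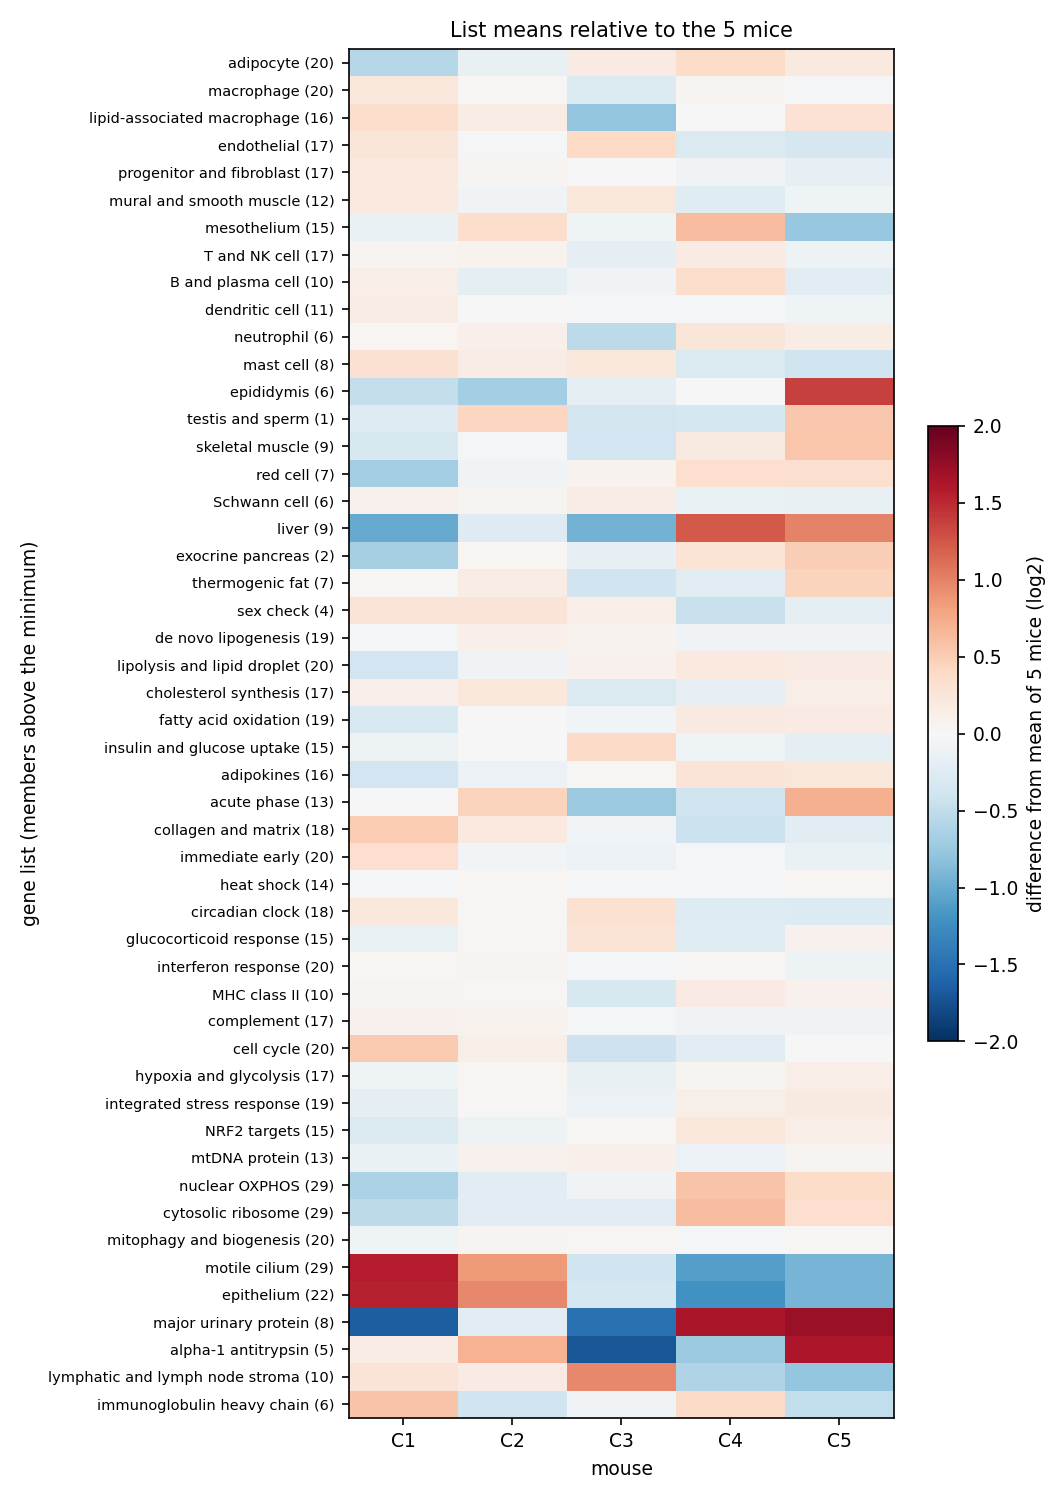
Mean of each of the 50 gene lists per mouse minus its 5-mouse mean (log2 scale, red above and blue below), with the number of members above the minimum in brackets. The deepest colours belong to cilium, epithelium, major urinary protein, alpha-1 antitrypsin, liver and epididymis lists, and the palest to heat shock, interferon response and mitophagy lists.

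Over all genes, component 1 of the centred values held 74.0% of the variance and set C1 (weight 0.63), C2 (0.278) and C3 (0.096) against C4 (-0.58) and C5 (-0.424). Component 2, with 15.3%, was mainly C3 (0.854). Among the 4140 genes with an SD above 0.5, 813 (19.6%) shared the order C4, C5, C3, C2, C1 from highest to lowest, that of OXPHOS genes, and 669 (16.2%) shared C1, C2, C3, C5, C4, that of cilium genes. Of 120 possible orders these were the most frequent. Over all genes, whatever their SD, they held 12.5% and 7.76%. With the length trend removed, the cilium order came first among genes with an SD above 0.5, with 504 (18.7%). The OXPHOS order fell to 253 of these (9.37%). Over all genes the OXPHOS order still held the larger share, 10.2% against 6.1% for the cilium order. Component 1 then held 67.7%.

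In 266 genes (1.41%) a lone mouse was apart from the nearest other by at least 1. C1 was the high one in 115 of them, C4 in 38, C5 in 35, C3 in 27 and C2 in 2. C3 was the low one in 32, C1 in 7, C5 in 7, C4 in 5 and C2 in none. The C1 set held more cilium genes outside the list, such as the rootlet gene Crocc2 (7.56, 5.97, 4.90, 4.02 and 4.18), the dynein heavy chain Dnah2 (7.85, 6.38, 5.54, 4.93 and 4.94) and the factor Trp73 (6.34, 4.99, 3.52, 3.10 and 3.11), which multiciliated cells need.

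Nearest profiles were sought among genes with the same order of mice as a marker, by the root mean square (RMS) difference of centred values over the 5 mice. With 5 mice such likeness is a description only. The gene nearest to Lep was the LPS-binding protein Lbp, an acute phase protein (RMS 0.0367). Adgre1 had the beta 2 integrin Itgb2 among its 5 nearest (0.0681), Pecam1 the junctional molecule Jam2 (0.0373) and Krt7 mesothelin Msln (0.246). Nearest to Atf3 was Mmp12 (0.0962), with Ctss also among its 5 (0.219). Thrsp had the fatty acid receptor Ffar4 as its nearest (0.0764), Cd68 had Pkib (0.0487) and Pdgfra had Hjurp (0.038). The 5 genes nearest to Adipoq were Gm8341, Rpl9-ps3, Gm12389, Gm47885 and S100a10, in an order of mice shared by 2359 other genes.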

How the data were processed

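RNA was sequenced from frozen eWAT, 1 library per mouse. Per the methods and labels, the authors isolated RNA with Trizol and RNeasy columns, prepared libraries with a KAPA mRNA kit, ran FastQC on the reads, used Rsubread to align them to GRCm38 and count genes, and used DESeq2 1.30.0. No source used here says whether strand was used in counting, so overlapping and antisense genes are uncertain. The values that the authors deposited are regularized logs (log2 scale), fitted over 10 libraries. The 5 columns of the other genotype were left out of every step here, although the authors' shrinkage used them. The other deposited tables hold comparisons of genotypes or vectors (fold changes, p-values) and were not used.

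The 5 columns name the group and not which label each mouse has. A gene was kept when its mean reached log2 of 10. Length-scaled levels are 2 to the power of the rlog value per kilobase of summed exons (GENCODE M21, GRCm38, 21756 of 21756 IDs annotated), set to a sum of 1000000 per library. A length trend was removed as the median deviation in 40 bins of exon length, interpolated between bins. No depth is known, so no counting interval is given, and with 1 group and 5 mice no groups were tested and no correlation across mice was run. Dixon's criterion alone was used, to mark lone mice.

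The members, the markers and 44 gene lists were chosen with earlier results of these data known, and 6 more lists after the values per mouse were seen. A rule named the markers, the 20 most abundant genes, the 20 of largest SD with and without the length trend, up to 4 abundant and 4 variable members of each of the 44 lists, the 5 nearest profiles of 12 anchor genes and the 10 flattest of 2000 abundant genes. Of 150 genes printed with 5 values, 113 came from this rule and 37 were picked with their values already known. Alternatives were another minimum or none, median centring, quantile normalization, the length trend removed, another length, and leaving out each mouse. Scripts were tested on simulated data with 200 planted genes and used Python 3.11.15, pandas 2.3.3, numpy 2.4.6, scipy 1.17.1 and matplotlib 3.10.9. Promoter windows are from RefSeq. Some genes that the rule named, the floxed gene among the rest, are not reported here.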

Additional observations from a re-analysis of the deposited data

Results flagged for a closer look

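For 189 printed profiles over the 5 mice (150 genes and 39 list means), the gap between the end mouse and its neighbour was set against the whole range by Dixon's critical value of 0.71 for 5 samples. In 8 profiles (4.23%) a lone mouse lay beyond it, and chance flags about 1 in 20 groups. Many of the genes had been picked for how far apart their mice were, so this share has no fair background.

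C3 was the lone mouse in 7 of the 8. Zbtb16 was at 11.44 in C3, against 9.73 to 9.92 in the other mice, and Fkbp5 at 11.95 against 10.37 to 10.71. The clock repressor Nr1d1 was at 11.82, against 11.11 to 11.26. Gbp2b was at 8.19, against 4.71 to 5.02, and the chemokine Ccl19 at 5.52, against 2.92 to 3.21. On the low side, Arg1 was at 4.65 in C3, against 5.93 to 6.07 elsewhere, and Lgals3 at 12.4 against 13.4 to 13.8. The mean of the immediate early list was at 8.6 in C1, against 8.15 to 8.24 in the other mice. No cause of these values was tested.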

How the results depend on the processing

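No paired analysis was possible because only 1 group was described. The count of genes with an SD above 0.5 (4140) was 2695 with a minimum of log2 of 50, 2699 with the length trend removed, 1770 within C1 to C3, 374 at an SD limit of 1, and 3065 (without C1) to 5255 (without C2) when a mouse was left out. Component 1 (74.0%) held 68.1% without C1 and 86.6% without C3. The most frequent order of mice (813 genes) had 504 genes with the length trend removed, then as the cilium order, 161 at an SD limit of 1, and 552 to 1729 with a mouse left out, when fewer orders exist. Genes within 2-fold (12581) numbered 12710 to 15194 with a mouse left out. The share of the 20 most abundant genes (25.6%) was 20.5% without division by length, 23.5% per longest transcript, 19.5% without mtDNA genes, 31.5% over protein-coding genes and 25.1% to 26.0% with a mouse left out. The median SD of the list means (0.283) was 0.234 with the length trend removed, 0.247 after quantile normalization, 0.351 for list medians, 0.229 within C1 to C3 and 0.245 to 0.310 with a mouse left out. Of the 20 genes of largest SD, 8 were shared with the length trend removed, 8 within C1 to C3, 8 without C3 and 19 after median centring. For 386 named genes, the SD fell by more than 1.5-fold in 88 and rose by more than 1.5-fold in 21 with the length trend removed, and in 36 and 20 after quantile normalization, 152 and 0 within C1 to C3, and 0 and 4 after median centring. The quantile and trend settings, the minimum and the omitted mice were planned, and the rest (C1 to C3, SD limit of 1, protein-coding genes) were added after the data were seen. Depth is unknown and shrinkage limits what scarce genes can show.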
